A study of Mus musculus with 8 samples.

Results

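The oligoadenylate synthetase genes Oas1a, Oas1b, Oas1g, Oas2, Oas3, Oasl1 and Oasl2 were followed through RNA sequencing of cultured mouse pancreatic cancer cells. They were found by matching Ensembl identifiers to these symbols, which gave 7 of the 42687 genes in the count table, and all 7 were among the 15197 genes tested. The cells were a clonal line of low immunogenicity from KPCY mice, which carry the alleles KrasLSL-G12D/+, Trp53LSL-R172H/+, Pdx1-Cre and Rosa26YFP/YFP, so that Cre acts under the Pdx1 promoter of the pancreas. All groups share this 1 clone, and the genotype field of every library reads WT. The groups, each of 2 libraries, received ATEVs at 15 µg/mL, ATEVs at 15 µg/mL after pretreatment with a DNase, NTEVs at 30 µg/mL, or PBS. EVs are extracellular vesicles, small membrane-bound particles shed by cells. The labels give NTEVs as those from non-activated T cells, and ATEV is taken here to mean vesicles from activated T cells. The ATEV and NTEV amounts are taken to hold 5 µg/mL of EV-DNA each, so the NTEV dose was higher by EV mass. Cells were harvested and reseeded the day after each exposure, and the cycle was repeated 8 times. Whether libraries 1 and 2 of a group were grown as separate cultures is not stated, so the p-values rest on a spread that may be technical.

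Oligoadenylate synthetases bind double-stranded RNA and then join ATP into short chains known as 2-5A. These chains are second messengers that lead to the cutting of cellular and viral RNA and so limit translation and viral growth. Most genes of the family are textbook targets of interferon: type I interferon acts on a promoter element called the interferon-stimulated response element (ISRE), and interferon gamma acts on the gamma-activated site (GAS). In mice the Oas1 genes form a tandem cluster beside Oas2 and Oas3, and Oasl1 and Oasl2, whose proteins end in ubiquitin-like domains, lie together elsewhere on the same chromosome 5.

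The promoters of the members are shown because the members differed in response and in start-site sequence. RefSeq's promoter table for GRCm38.p6 held 5 of the 7 members, all but Oas1b and Oas2. Each stretch below has 150 bases, from 120 before the annotated start to 30 after it, on the strand of the gene. Capitals mark matches to GAAANNGAA, a pattern found in ISREs, and to TTCNNNGAA, the core of a GAS, each searched on both strands. Adjoining GAAANNGAA matches overlap and are written as 1 run.
Oas1a (chr5:120907496-120907645, minus strand): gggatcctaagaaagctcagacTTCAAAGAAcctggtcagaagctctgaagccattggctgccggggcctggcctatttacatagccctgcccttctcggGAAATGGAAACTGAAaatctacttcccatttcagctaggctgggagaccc
Oas1g (chr5:120887584-120887733, minus strand): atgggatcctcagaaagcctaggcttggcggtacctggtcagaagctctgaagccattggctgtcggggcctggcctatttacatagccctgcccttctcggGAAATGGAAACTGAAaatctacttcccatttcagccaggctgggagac
Oas3 (chr5:120777630-120777779, minus strand): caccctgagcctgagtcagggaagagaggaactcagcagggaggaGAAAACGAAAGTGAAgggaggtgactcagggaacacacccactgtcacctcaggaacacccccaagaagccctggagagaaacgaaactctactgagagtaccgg
Oasl2 (chr5:114896814-114896963, plus strand): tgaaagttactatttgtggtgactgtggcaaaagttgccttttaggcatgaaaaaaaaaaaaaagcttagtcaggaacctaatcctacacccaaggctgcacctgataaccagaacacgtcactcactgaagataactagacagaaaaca
Oasl1 (chr5:114923120-114923269, plus strand): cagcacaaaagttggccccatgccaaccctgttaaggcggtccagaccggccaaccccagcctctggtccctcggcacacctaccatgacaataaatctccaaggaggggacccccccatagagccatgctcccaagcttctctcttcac

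In Oas1a the GAAANNGAA matches began 20 and 14 bases before the start site, and in Oas1g 18 and 12 bases before it. In Oas3 they began 75 and 69 bases before the start. Over the full windows of 300 bases the Oas1a and Oas1g promoters were identical in 85.3% of aligned columns, while all other pairs of the 5 lay between 45.9% and 50.3%. The TTCNNNGAA match of Oas1a, 98 bases before its start, is absent from the Oas1g window. The windows of Oasl2 and Oasl1 held neither pattern, which says only that these letters are not in these windows. Of all 32851 promoter windows, 8.56% held GAAANNGAA and 8.30% held TTCNNNGAA.

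The libraries held 34385326 to 52451398 gene counts each. The culture had the marker profile of epithelial cells: all 7 pancreatic ductal markers were tested, with Krt8 at 2045 to 2681 CPM (TMM-scaled counts-per-million) and Epcam at 6.44 to 29.9. Summed over 11 T cell markers the level was 8.47 to 11.01 CPM with ATEVs, 8.84 to 11.5 with DNase-treated ATEVs, 6.30 to 8.46 with NTEVs and 10.6 to 11.8 with PBS, nearly all of it from Lck and Trac. Cd2 and Cd8a had no count in any library, and Cd3e, Cd3d and Cd3g had at most 2. Markers of myeloid and B cells summed to at most 5.95 CPM in any library. In bulk RNA, fewer cells of a type and less RNA per cell cannot be told apart.

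Repeated exposure to ATEVs, set against PBS to ask what these vesicles did to the cells, raised 6 of the 7 genes, or 5 of 6 without Oas1g, which had very few counts in the PBS libraries. Oas2 was 179-fold higher, and Oasl1 had the smallest difference, 1.34-fold, and did not pass the test. The count of 6 of 7 stands beside 3.52% of all tested genes called higher in this comparison (edgeR's quasi-likelihood test, Benjamini-Hochberg adjusted p under 0.05). The median log2 fold change of the 7 genes was 5.59, against -0.02 over all genes tested. Both ATEV libraries lay above both PBS libraries for 7 of the 7 genes, as they did for 25.2% of all genes tested. Because an exact two-sided permutation test of 2 libraries against 2 cannot go below 0.333, all p-values come from the model fitted over all genes and groups.

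Oas1a, a synthetase of the short class, was at 23.3 and 31.9 CPM in the ATEV libraries, 3.73 and 6.52 with DNase-treated ATEVs, 0.567 and 1.49 with NTEVs, and 0.680 and 0.517 with PBS. The ATEV libraries lay above all others and the NTEV and PBS libraries overlapped. Against PBS, ATEVs raised it by log2 5.51 ± 0.55 (SE, edgeR adjusted p = 0.00281). Oas1g, the close copy of Oas1a, was at 4.48 and 6.0 CPM with ATEVs, 0.218 and 0.772 with DNase-treated ATEVs, 0.0391 and 0.0498 with NTEVs, and 0.117 and 0.0304 with PBS. Its NTEV libraries held 2 and 2 counts and its PBS libraries 6 and 1, so it passed the filter on low counts through the libraries where it was high. Its ATEV libraries held 195 and 263 counts and passed the test against PBS (edgeR adjusted p = 0.00637). No fold against the PBS or NTEV libraries is given for Oas1g, because a fitted fold at such counts depends on the prior count.

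These copies share much of their sequence. Of the 50-base words in the longest Oas1a transcript 57.6% also occur in Oas1g, and 54.1% of those of Oas1g occur in Oas1a. The split of reads between them is therefore uncertain. With the counts of all Oas1 genes summed, ATEVs raised the sum by log2 4.38 ± 0.58 (edgeR adjusted p = 0.00827). Every other member shared at most 3.41% of its words with any other gene.

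Oas1b is known in mice for flavivirus resistance when intact, and many laboratory strains carry a truncated form of it. GENCODE M21 lists it as a polymorphic pseudogene. It was at 4.28 and 3.54 CPM with ATEVs, 1.98 and 4.85 with DNase-treated ATEVs, 0.371 and 1.02 with NTEVs, and 0.447 and 0.182 with PBS. Here the ATEV and DNase-treated ATEV libraries overlapped, and both groups lay above the NTEV and PBS libraries. ATEVs raised it by log2 3.57 ± 0.69 over PBS (edgeR adjusted p = 0.0344), a call that was lost on leaving out any of the 4 libraries (highest edgeR adjusted p = 0.219). Without PBS library 1 its difference was log2 4.39.

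Oas2, a larger synthetase with tandem catalytic units, was at 18.5 and 44.0 CPM with ATEVs, 5.62 and 18.1 with DNase-treated ATEVs, 0.977 and 2.41 with NTEVs, and 0.0971 and 0.274 with PBS. No 2 groups overlapped, though the higher DNase-treated library came close to the lower ATEV library. The ATEV rise over PBS was log2 7.49 ± 0.99 (edgeR adjusted p = 0.00800), with 5 and 9 counts in the PBS libraries. On leaving out a library it ran from log2 6.73 without ATEV library 2 and 6.81 without PBS library 1 to 8.29 without PBS library 2. Oas3, the largest enzyme of the family, known in human cells as the main source of 2-5A, was at 64.2 and 92.0 CPM with ATEVs, 5.91 and 12.6 with DNase-treated ATEVs, 1.02 and 2.69 with NTEVs, and 0.602 and 1.00 with PBS. Its 4 groups were also apart, in the same order, and ATEVs raised it by log2 6.63 ± 0.65 over PBS (edgeR adjusted p = 0.00264).

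Oasl2, which in mice has kept synthetase activity, was at 100.1 and 100.2 CPM with ATEVs, 22.4 and 37.6 with DNase-treated ATEVs, 6.33 and 11.5 with NTEVs, and 2.29 and 1.82 with PBS. It had the smallest adjusted p of the 7 genes, and no library overlapped another group. ATEVs raised it by log2 5.59 ± 0.40 over PBS (edgeR adjusted p = 0.00105), the 1 member whose call held in all 4 fits that left out a library (highest edgeR adjusted p = 0.0289). Oasl1, which lacks synthetase activity and in mice restrains translation of Irf7, was at 65.1 and 63.8 CPM with ATEVs, 61.2 and 67.6 with DNase-treated ATEVs, 55.3 and 58.2 with NTEVs, and 42.5 and 53.8 with PBS. The difference from PBS was log2 0.42, with a 95% interval of 0.07 to 0.77 (edgeR adjusted p = 0.162).

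**Figure D1:**
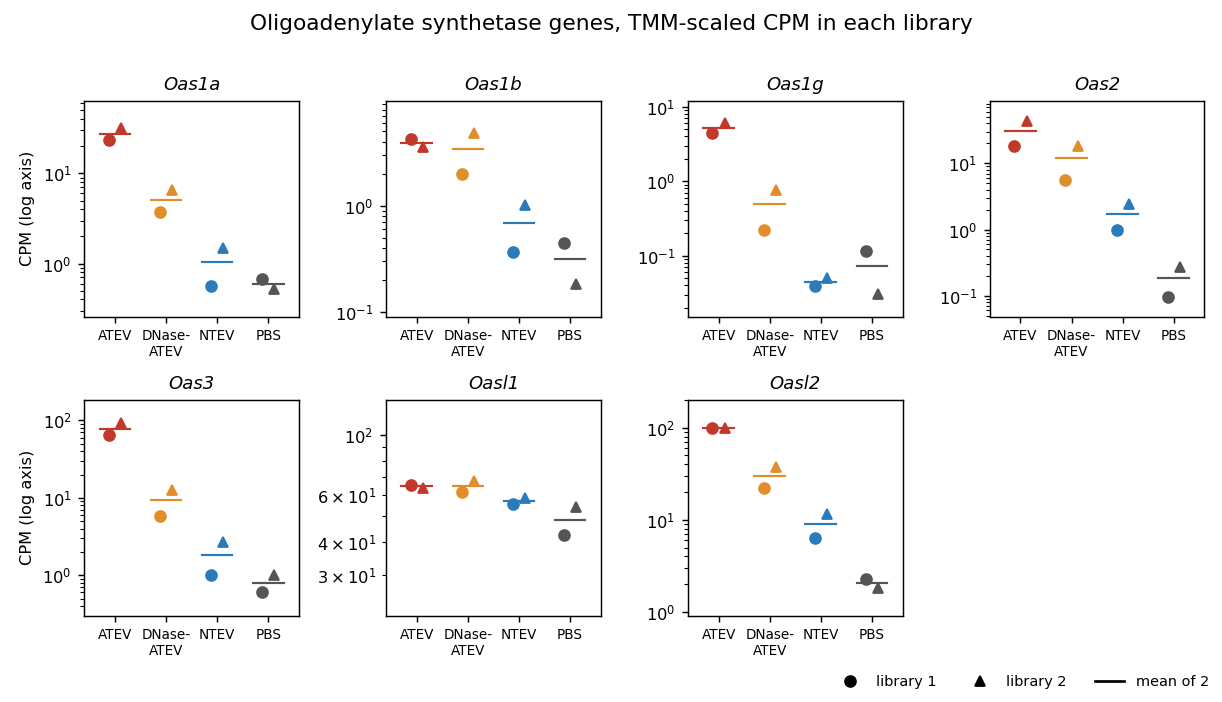
TMM-scaled CPM on log axes, with a range of its own in each panel, for the 7 genes in each library: circles are library 1, triangles library 2 and bars the mean of the 2. Oasl2 lay at 100.1 and 100.2 CPM with ATEVs and at 2.29 and 1.82 with PBS, while Oasl1 stayed between 42.5 and 67.6 in all 8 libraries.

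The calls against PBS rested on both PBS libraries. Without PBS library 1 the calls of Oas1a and Oasl2 were kept for ATEVs, and without PBS library 2 those of Oas3 and Oasl2. Leaving out a PBS library ended the calls of Oas1g and Oas2 either way (highest edgeR adjusted p = 0.0747 and 0.105), that of Oas1a without library 2 (0.0537) and that of Oas3 without library 1 (0.0509).

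NTEVs, which ask what T cell vesicles do without activation, gave smaller differences from PBS. By edgeR 0 of the 7 genes passed, 2 were higher at an unadjusted p under 0.05 and DESeq2 called 2. Of all genes tested 0.704% were called higher by edgeR, 10.3% were higher at an unadjusted p under 0.05 and 3.82% were called higher by DESeq2. Those 2 were Oas2 and Oasl2 in both cases. Oas2 was 9.65-fold higher (95% interval of the log2 difference 1.02 to 5.56, edgeR adjusted p = 0.154) and Oasl2 4.29-fold higher (1.25 to 2.95, edgeR adjusted p = 0.0512). For 4 of the 7 genes the NTEV libraries lay above the PBS libraries, as they did for 28.6% of all genes tested. Oas1a, Oas1b and Oas1g overlapped between NTEV and PBS libraries, with log2 differences of 0.74 for Oas1a and 1.06 for Oas1b. The sign for Oas1a turned to -0.10 without NTEV library 2.

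Set directly against NTEVs, ATEVs raised 4 of the 7 genes, or 3 of 6 without Oas1g, beside 1.05% of all genes called higher. The ATEV libraries lay above the NTEV libraries for 7 of 7 genes, against 13.7% of all genes tested. Oas1g had 195 and 263 counts with ATEVs against 2 and 2 with NTEVs (edgeR adjusted p = 0.00941). Oas3 was 42.6-fold higher (edgeR adjusted p = 0.00764), Oas1a 27.1-fold (0.00739) and Oasl2 11.3-fold (0.00582). Oas2 was 18.6-fold higher but missed the threshold (edgeR adjusted p = 0.0638), as did Oas1b at 5.67-fold (0.196). Oasl1 differed by log2 0.18, with a 95% interval of -0.17 to 0.53. The call of Oas1g was lost without either NTEV library (highest edgeR adjusted p = 0.129), and those of Oas3, Oas1a and Oasl2 held without any of the 4 libraries. Without NTEV library 2 the differences were log2 6.26 for Oas3 and 5.60 for Oas1a, against 5.41 and 4.76 with it. With only the ATEV and NTEV libraries in the fit, 1 gene, Oas1g, was called.

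ATEVs pretreated with a DNase still raised 4 of the 7 genes over PBS, beside 2.16% of all genes called higher. The libraries of these groups were apart in this direction for 7 of 7 genes, against 29.7% of all genes tested. Oas2 was 68.2-fold higher (edgeR adjusted p = 0.0275), Oasl2 14.5-fold (0.00702), Oas3 11.8-fold (0.0311) and Oas1a 8.43-fold (0.0312). Oas1b was 10.4-fold higher and just missed the threshold (edgeR adjusted p = 0.0511), and Oas1g had 9 and 31 counts against 6 and 1 (edgeR adjusted p = 0.108). Calls were lost on leaving out single libraries, while the 4 genes stayed higher each time: the log2 differences ran from 3.44 to 4.21 for Oasl2, 2.92 to 4.04 for Oas3, 2.63 to 3.46 for Oas1a and 5.02 to 6.88 for Oas2. The lowest values of Oas2 and Oas3 came without DNase-treated library 2, and the highest of Oas2 without PBS library 2. Leaving out PBS library 1 or PBS library 2 ended the edgeR calls of all 4 genes. Leaving out DNase-treated library 1 left 2 calls, and leaving out library 2 left 1. When the fit held protein-coding genes only, and so not Oas1b, 1 gene, Oasl2, was called.

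The direct comparison of DNase-treated with untreated ATEVs asks what the pretreatment itself changed. By edgeR 0 of the 7 genes passed, 4 were lower at an unadjusted p under 0.05, and DESeq2 called 4 lower. Of all genes tested 0.579% were called lower by edgeR, 4.97% were lower at an unadjusted p under 0.05 and 1.79% of those with a DESeq2 adjusted p were called lower by it. The 4 were Oas1g, Oas3, Oas1a and Oasl2 in both cases. Their DNase-treated levels were 9.46%, 11.8%, 18.5% and 29.9% of the ATEV levels in that order (edgeR adjusted p = 0.0835, 0.0713, 0.0993 and 0.106), and for each of them both DNase-treated libraries lay below both ATEV libraries. With Oas2 that makes 5 of 7 genes apart in this direction, against 16.8% of all genes tested. Oas1g, which passed the filter on low counts through its ATEV libraries, is among the 4 and the 5. Without it the lower genes were Oas3, Oas1a and Oasl2, with Oas2 also apart. The 95% intervals of the log2 difference were -4.84 to -1.98 for Oas1g, -4.32 to -1.83 for Oas3, -3.51 to -1.35 for Oas1a and -2.53 to -0.95 for Oasl2. Oas2 kept 38.0% of its ATEV level (95% interval of the log2 difference -3.00 to 0.21) and Oas1b 87.5% (-1.58 to 1.19). The Oas2 difference ran from log2 -2.50 without DNase-treated library 2 to -0.65 without ATEV library 2. For Oasl1 the log2 difference was -0.00, with a 95% interval of -0.35 to 0.35. With replicate number as a block in the fit, edgeR called 4 members here, and the share of all genes was not taken. Same-numbered deviations of ATEV and DNase-treated ATEV libraries correlated at 0.552. The labels do not say whether a number marks a shared culture or day.

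The DNase-treated ATEV libraries lay above both NTEV libraries for all 7 genes, which held in that direction for 20.3% of all genes tested. By edgeR 0 of the 7 passed, 6 were higher at an unadjusted p under 0.05 and DESeq2 called 6. Of all genes tested 0.0461% were called higher by edgeR, 5.86% were higher at an unadjusted p under 0.05 and 0.915% were called higher by DESeq2. The 6 were all but Oasl1, and without Oas1g they were 3.37-fold (Oasl2) to 7.06-fold (Oas2) higher, with edgeR adjusted p from 0.243 to 0.401. Comparisons against PBS share the PBS libraries, and those against ATEVs or NTEVs share theirs, so the values stand side by side and are not independent of each other.

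**Figure D2:**
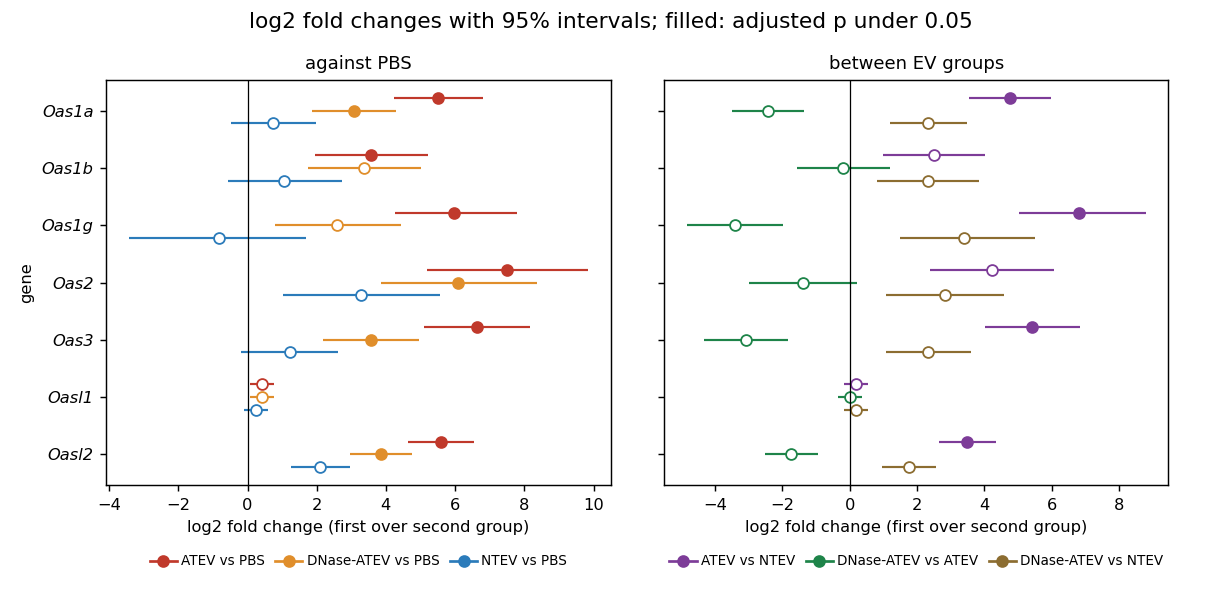
log2 fold changes of the 7 genes, first named group over the second, with lines for 95% intervals and filled points for an edgeR adjusted p under 0.05. Against PBS the ATEV points run from 0.42 (Oasl1) to 7.49 (Oas2), and on the right no point of DNase-treated ATEVs against ATEVs is filled. The Oas1g points against PBS and NTEVs rest on 1 to 6 counts in each library of those groups. The Oas2 points against PBS rest on 5 and 9 counts in the PBS libraries.

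Levels of different genes were compared per kb of exon, using the union of exons in GENCODE M21 and not the annotation the authors counted with. On this scale Oasl1 ranked highest in all 8 libraries. The ranks and shares depend on the length used. For Oasl2 the union has 6374 bases and the longest transcript 3123, and for Oas3 they have 7069 and 4720. For Oasl1 they have 2608 and 2181, and for Oas1a both have 1885. Levels by transcript length were not computed, so the order of Oasl1, Oasl2, Oas1a and Oas3 with ATEVs is uncertain. By the union, Oasl1 made up 35.5% and 29.0% of the summed level of the 7 genes in the ATEV libraries, 73.0% and 59.0% with DNase-treated ATEVs, 91.9% and 84.6% with NTEVs, and 93.7% and 96.0% with PBS. The summed level was 70.3 and 84.4 CPM per kb with ATEVs, 32.1 and 43.9 with DNase-treated ATEVs, 23.1 and 26.4 with NTEVs, and 17.4 and 21.5 with PBS. Oas1a and Oasl2 came next with ATEVs, at 12.4 and 16.9 CPM per kb for Oas1a and 15.7 and 15.7 for Oasl2, and their order differed between the 2 libraries. By the union of exons Oas3 followed at 9.08 and 13.0 CPM per kb, then Oas2 at 4.16 and 9.89. Oas1b and Oas1g were lowest with ATEVs, at 2.15 and 1.78 and at 1.92 and 2.56 CPM per kb, and overlapped each other.

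**Figure D3:**
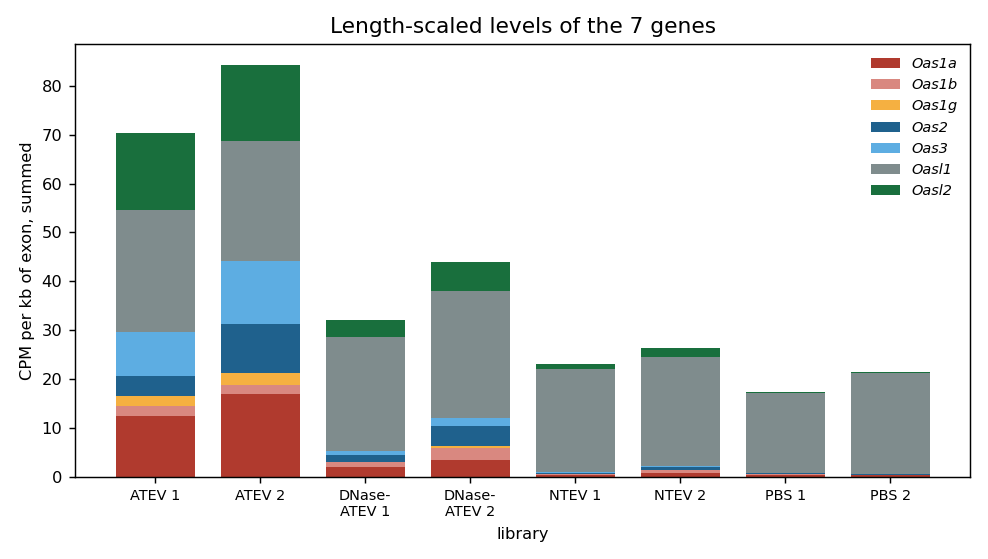
CPM per kb of exon of the 7 genes, stacked for each library from 0. The stack reaches 70.3 and 84.4 with ATEVs and 17.4 and 21.5 with PBS, where Oasl1 (grey) makes up 93.7% and 96.0%.

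Library 2 was above library 1 for 7 of 7 genes with DNase-treated ATEVs, 7 with NTEVs, 5 with ATEVs and 3 with PBS, where about as many genes of all tested were higher as lower in library 2 (47.8% to 52% higher). The widest gap with library 2 higher was 3.54-fold, for Oas1g with DNase-treated ATEVs. A wider gap went the other way, for Oas1g with PBS. It had 6 counts in library 1 and 1 in library 2, a log2 difference of -1.94.

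Genes that act beyond the synthetases were compared by lists. The list of genes tied to 2-5A turnover held 6 tested genes. Among them Abce1, an ATPase of ribosome recycling, was at 337 and 191 CPM with ATEVs, 315 and 206 with DNase-treated ATEVs, 302 and 175 with NTEVs, and 394 and 506 with PBS (ATEV against PBS log2 -0.77, edgeR adjusted p = 0.283). Its libraries of all 3 EV groups lay below both PBS libraries, with log2 -0.79 for DNase-treated ATEVs (edgeR adjusted p = 0.236) and -0.92 for NTEVs (0.245). Enpp1, a phosphodiesterase of the cell surface, was at 91.8 and 84.6 CPM with ATEVs and 128 and 100.2 with PBS (log2 difference -0.37, edgeR adjusted p = 0.222). Akap7, whose product cleaves 2-5A in mice, was at 11.3 and 13.9 CPM with ATEVs and 16.5 and 15.7 with PBS (log2 difference -0.35, edgeR adjusted p = 0.350). Enpp3, a relative of Enpp1, was at 65.7 and 75.9 CPM with ATEVs, 121.6 and 79.9 with DNase-treated ATEVs, 85.3 and 57.6 with NTEVs, and 58.5 and 54.2 with PBS (ATEV against PBS log2 0.33, edgeR adjusted p = 0.485). With DNase-treated ATEVs against PBS it differed by log2 0.84 (edgeR adjusted p = 0.112). For Abce1, Enpp1 and Akap7 the ATEV libraries lay below the PBS libraries, and for 2 of the 6, Enpp3 and Dis3l2, they lay above. Of all genes tested 25.2% lay above in this way, and the share lying below was not taken. By edgeR 0 of the 6 on the list passed in any of the 6 comparisons. At an unadjusted p under 0.05 there were at most 2 per comparison, and DESeq2 called at most 1.

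Regulators of the family were counted in the same way. Of 16 tested genes of interferon signal transduction 6 rose and 0 fell with ATEVs against PBS, with a median log2 fold change of 0.42. Over all genes tested 3.52% were called higher there and the median was -0.02. The 16 include Irf8, which had 110 and 23 counts with ATEVs and none in any other library. It passed the filter on low counts through the ATEV libraries alone and is not among the 6. In the comparisons without ATEV libraries Irf8 had no counts and could not be called. Irf1, a transcription factor that binds ISRE-like elements, was at 393 and 192 CPM with ATEVs, 57.2 and 58.2 with DNase-treated ATEVs, 36.3 and 50.6 with NTEVs, and 40.9 and 30.3 with PBS (ATEV against PBS log2 3.04, edgeR adjusted p = 0.00558). Its DNase-treated libraries were well below its ATEV libraries and much closer to its PBS libraries. It fell with DNase-treated against untreated ATEVs (log2 -2.34, edgeR adjusted p = 0.0412), the 1 call among the 16 there, beside 0.579% of all genes called lower.

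Stat2, Irf9 and Irf7 had another pattern. Stat2, a transducer of type I interferon signals, was at 81.5 and 89.2 CPM with ATEVs, 51.0 and 91.0 with DNase-treated ATEVs, 22.7 and 37.5 with NTEVs, and 24.7 and 21.03 with PBS. Irf7, which drives interferon genes and whose translation Oasl1 restrains, was at 45.3 and 86.3 CPM with ATEVs, 26.2 and 59.5 with DNase-treated ATEVs, 10.97 and 28.0 with NTEVs, and 5.30 and 5.68 with PBS. Irf9, a DNA-binding partner of Stat2, was at 49.4 and 54.7 CPM with ATEVs, 29.1 and 50.5 with DNase-treated ATEVs, 22.1 and 34.4 with NTEVs, and 16.2 and 15.8 with PBS. In each of these genes the ATEV and DNase-treated ATEV libraries overlapped. Irf9 rose with ATEVs against PBS (log2 1.70, edgeR adjusted p = 0.0259) and missed the threshold with DNase-treated ATEVs (log2 1.31, adjusted p = 0.0645). Stat2 and Irf7 were the 2 of the 16 that rose with DNase-treated ATEVs against PBS (Stat2 log2 1.63, edgeR adjusted p = 0.0498, and Irf7 log2 2.96, adjusted p = 0.0497). In that comparison 2.16% of all genes tested were called higher. Both genes rose with ATEVs (log2 1.90 and 3.58). Under NTEVs edgeR called 0 of the 16 over PBS, while 4 were higher at an unadjusted p under 0.05 and DESeq2 called 1, beside the 10.3% and 3.82% of all genes given above for these rules.

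Other sensors of nucleic acids formed the last list. Of 10 tested sensors 6 rose with ATEVs against PBS (3.52% of all genes), with a median log2 fold change of 1.21. With DNase-treated ATEVs 4 rose (2.16% of all genes). Zbp1 is among the 6 and the 4. Its PBS libraries held 4 and 2 counts and its NTEV libraries 0 and 3. It thus passed the filter on low counts through the libraries where it was high. Without Zbp1 the sensors called were Ifih1, Ddx58, Dhx58, Eif2ak2 and Adar with ATEVs, and Ddx58, Dhx58 and Adar with DNase-treated ATEVs. For NTEVs edgeR called 0, DESeq2 called 2 (3.82% of all genes), and 4 were higher at an unadjusted p under 0.05 (10.3% of all genes). Zbp1, a sensor of left-handed nucleic acid, was at 50.8 and 31.01 CPM with ATEVs, 0.774 and 0.896 with DNase-treated ATEVs, 0 and 0.0747 with NTEVs, and 0.0777 and 0.0608 with PBS. It was the 1 sensor that fell with DNase-treated against untreated ATEVs (log2 -5.61, edgeR adjusted p = 0.00485), beside 0.579% of all genes called lower. Ddx58, the sensor RIG-I, was at 64.8 and 64.1 CPM with ATEVs, 33.9 and 40.5 with DNase-treated ATEVs, 23.0 and 35.1 with NTEVs, and 18.4 and 15.7 with PBS. Dhx58, a relative of the RNA sensors of the RIG-I family, was at 11.2 and 21.6 CPM with ATEVs, 6.75 and 12.0 with DNase-treated ATEVs, 2.33 and 5.20 with NTEVs, and 1.18 and 1.52 with PBS. Its groups kept the order seen for Oas2, with ATEV and DNase-treated libraries overlapping. It rose with ATEVs and with DNase-treated ATEVs over PBS (edgeR adjusted p = 0.0142 and 0.0445). Ifih1, the sensor MDA5 of long double-stranded RNA, was at 46.0 and 50.7 CPM with ATEVs, 22.1 and 25.9 with DNase-treated ATEVs, 18.2 and 24.4 with NTEVs, and 16.8 and 12.3 with PBS. Adar, which edits double-stranded RNA, rose by log2 1.08 with ATEVs (edgeR adjusted p = 0.00885) and by log2 0.78 with DNase-treated ATEVs (0.0421).

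**Figure D4:**
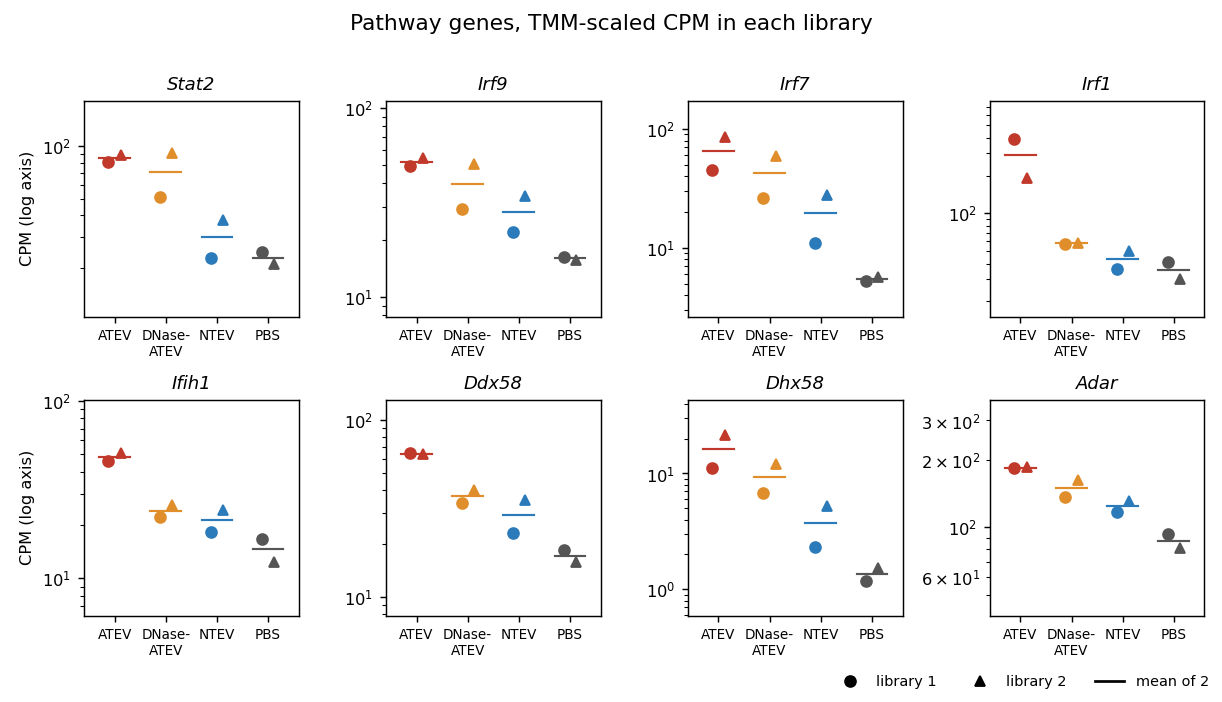
TMM-scaled CPM on log axes for 8 regulators and sensors in each library, drawn as for the family. Irf1 lies at 393 and 192 CPM with ATEVs and at 30.3 to 58.2 in all other libraries, while Stat2 and Irf7 overlap between ATEVs and DNase-treated ATEVs.

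Patterns over the 8 libraries were compared by the root mean square difference of log2 CPM, each gene centred on its mean. Oas1a was closest to Oas3 among the members (0.49), and Oasl2 was closer to Oas1a (0.59) than to Oasl1 (1.93). Outside the family the gene most like Oasl2 was Rtp4 (0.25), a receptor-transporting protein, which was also the gene most like Oas2 (0.84). Oas1a was most like Isg15 (0.45), a ubiquitin-like modifier, and Oas1b most like Osmr (0.34), the oncostatin M receptor. H2-Q4, a class I gene with near-identical copies, was the gene most like Oas1g (0.67) and Oas3 (0.60). Oasl1, nearly level, was most like Syvn1 (0.048), a ubiquitin ligase of the endoplasmic reticulum. The distances describe these 8 libraries, which form 4 groups of 2.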

How the data were processed

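Stranded mRNA libraries were made from total RNA, per the labels' protocols. Tools listed in the submitters' processing notes, without role or order, were Cufflinks 2.1.1, TopHat, TopHat2 2.0.11 and bcl2fastq 2.19, with the build mm9. The counting tool, its use of strand and its gene models were not given in the sources used here. Overlapping and antisense genes are therefore uncertain. The authors deposited whole-number counts per gene, 1 column per library. Symbols (42250 of 42687 identifiers), exon lengths and transcripts came from GENCODE M21, with no coordinates taken from it.

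Counts were filtered by group expression (15197 genes kept), TMM-scaled and fitted in edgeR 4.0.16 (R 4.3.3) with a mean per group over all 8 libraries, with 4 residual degrees of freedom and a common biological coefficient of variation of 0.226. Tests were two-sided, quasi-likelihood, and Benjamini-Hochberg adjusted over all genes of a comparison, with a threshold of 0.05. SE and 95% intervals were derived from the F statistic and the fitted coefficient without edgeR's prior count. The printed log2 fold changes include that prior count, so the intervals need not be centred on them. Alternatives included DESeq2 1.42.0. Replicates differed beyond sampling noise (chi-square per gene 39.0 to 145). Log values for pattern distances used a prior count of 2. The steps were tested on simulated data.

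The members, lists and tests were chosen with earlier results of these data known. Named were all members, list genes with the smallest p, and nearest patterns among named protein-coding genes with mean log2 CPM of at least 1. Some genes of the lists are not reported here and were left out of the lists' counts.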

Additional observations from a re-analysis of the deposited data

How the results depend on the processing

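Directions held for all 7 members under every alternative in ATEVs against PBS, DNase-treated ATEVs against PBS, ATEVs against NTEVs, and DNase-treated ATEVs against NTEVs. Of 435 member values under alternatives, 356 kept direction and side of the threshold, 43 passed newly, 31 no longer passed and 5 turned sign. Log2 values turned sign for Oas1a with NTEVs against PBS (-0.10 to 1.34 on leaving out a library) and Oas1g there (-1.36 to 0.48). With DNase-treated against untreated ATEVs they did for Oas1b (-0.998 to 0.32) and Oasl1 (-0.098 to 0.072, and 0.0041 with protein-coding genes only). Without a filter on low counts, and likewise with DESeq2, 2 members passed with NTEVs against PBS, 4 with DNase-treated against untreated ATEVs and 6 with DNase-treated ATEVs against NTEVs. With replicate number as a block (replicate block) these counts were 2, 4 and 2, 5 with DNase-treated ATEVs against PBS, 5 with ATEVs against NTEVs and 6 with ATEVs against PBS. The numbers were not used for pairing: same-numbered deviations correlated at 0.485 to 0.552 between EV groups but at -0.236 to -0.141 between PBS and EV groups. With protein-coding genes only, 1 member passed for DNase-treated ATEVs against PBS, and with only the groups compared, 1 for ATEVs against NTEVs. Leaving out a library gave 2 to 5 members for ATEVs against PBS, 0 to 2 for DNase-treated ATEVs against PBS, 3 to 4 for ATEVs against NTEVs and 0 for the other 3 comparisons by edgeR, where 1 to 6 members had an unadjusted p under 0.05. Among the lists, DESeq2 called 6 of the 16 transduction genes higher with DNase-treated ATEVs against PBS, 4 with ATEVs against NTEVs and 3 lower with DNase-treated against untreated ATEVs, and 7 and 3 of the sensors in the last 2. Among these alternatives the share of all genes called was taken only for DESeq2, in the comparisons where it is given above. For the other fits it is not known whether calls changed likewise over all genes. The cause of these shifts was not tested. Depth limits Oas1g most, with 1 to 6 counts in each NTEV and PBS library.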

Other observations

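Within a library, the ratio of counts of 2 members does not depend on depth or scaling, and such ratios differed between groups. These pairs were chosen after their values were seen. The Oas2 to Oas3 ratio was 0.288 and 0.478 with ATEVs, 0.951 and 1.44 with DNase-treated ATEVs, 0.962 and 0.898 with NTEVs, and 0.161 and 0.273 with PBS, so that it was lower with ATEVs than with both other EV groups while both genes were highest with ATEVs. The Oas1b to Oas3 ratio was 0.0666 and 0.0384 with ATEVs, 0.336 and 0.385 with DNase-treated ATEVs, 0.365 and 0.380 with NTEVs, and 0.742 and 0.182 with PBS. The Oas1a to Oas1g ratio was 5.20 and 5.32 with ATEVs, 17.1 and 8.45 with DNase-treated ATEVs, 14.5 and 30.0 with NTEVs, and 5.83 and 17.0 with PBS, with 1 to 31 Oas1g counts outside the ATEV libraries. An exact two-sided permutation test of such a ratio cannot go below 0.333 here.

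Of the 5 other Oas1 genes in the table, Oas1c was tested. It was at 4.46 and 7.44 CPM with ATEVs, 2.08 and 3.61 with DNase-treated ATEVs, 0.977 and 2.91 with NTEVs, and 1.17 and 0.942 with PBS (ATEV against PBS log2 2.49, edgeR adjusted p = 0.0558). Oas1d, Oas1e, Oas1f and Oas1h had at most 6 counts in any library.

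Interferon genes themselves were almost without counts. Counts were absent for 17 of 20 interferon ligand genes in every library, Ifnb1 and Ifng among them, where 3 counts would be 0.0583 to 0.0912 CPM. Ifne, a type I interferon of epithelia, was the 1 tested, with 22 and 18 counts with ATEVs, 16 and 19 with DNase-treated ATEVs, 13 and 8 with NTEVs, and 4 and 3 with PBS. It passed the filter on low counts through the EV libraries, and its fitted folds over so few PBS counts depend on the prior count. Against PBS it was called higher with ATEVs (log2 2.42, edgeR adjusted p = 0.0373). The difference was near that with DNase-treated ATEVs, which missed the threshold (log2 2.33, edgeR adjusted p = 0.0541), and log2 1.42 with NTEVs (0.209).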
